A study of Mus musculus with 14 samples.

Results

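In lungs of knockout mice, Rarb, the gene of retinoic acid receptor beta, was lower without CD9 than in wild type and lower than in lungs without CD151. Its difference from wild type did not pass when some single arrays were left out. Rbp7, a gene of a cellular retinol-binding protein, was the member with the widest spread, and its 4 highest signals were in lungs without CD151. The other members tested did not pass in any of the 3 comparisons. The group holds 9 genes of retinoid transport, binding and synthesis out of the 18193 genes measured: Rbp4, Rbp7, Stra6, Aldh1a1, Aldh1a2, Aldh1a3, Crabp1, Crabp2 and Rarb. They were taken by symbol, as the probe sets annotated with exactly 1 of these names, which gave 11 probe sets, 3 for Aldh1a3 and 1 for each of the others. Rbp7 was included because its signal in CD151KO had been noted as high with a wide spread, and the other 8 were chosen by function. For that reason Rbp7 is described without a test wherever CD151KO takes part.

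Whole lungs of C57BL/6 mice aged 20 weeks were measured on Affymetrix arrays, 1 array per sample, with total RNA as the starting material. The 3 groups were wild type (4 samples, numbered 1, 3, 4 and 5), CD151KO (5 samples), lacking the tetraspanin CD151, and CD9KO (5 samples), lacking the tetraspanin CD9. Tetraspanins are membrane proteins that organise integrins and other surface proteins, and the study's title concerns CD151, the lung epithelium and fibrosis. The labels name no treatment, and which part of each gene was removed is not stated in them. Nor is it stated that each sample is its own animal, so a p-value speaks only of the scatter among these samples, which could be technical. Values are normalized signals in linear units, and a signal cannot be set against that of another probe set.

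Retinol, vitamin A, travels in blood on retinol-binding protein and enters cells through the receptor STRA6. Inside the cell it is held by cellular binding proteins and oxidised to retinaldehyde and then, by the ALDH1A enzymes, to retinoic acid. Retinoic acid binds nuclear receptors that sit as dimers on repeats of a short DNA half-site, and in the lung it is known for its part in the formation of alveoli. In whole tissue, fewer cells of a type and less RNA per cell cannot be told apart.

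Cd151 had a signal of 1058 ± 17.7 in CD151KO (SD, n = 5) against 5330 ± 372 in wild type (n = 4), and Cd9 had 667 ± 52.3 in CD9KO (n = 5) against 8096 ± 69.4. Lung markers were present in all groups, with group means of Sftpc, the surfactant protein gene of alveolar type 2 cells, from 28522 to 28913. Array medians lay between 84.1 and 86.2. On the first principal component of all genes tested, wild type number 1 and CD151KO number 1 lay far from the rest (it held 37.3% of the variance), at -18.6 and -17.3 against -7.99 to 13.3 on the other 12. CD9KO lay at 7.24 to 13.3 on it, above every wild type and CD151KO array. The bacterial control BioB, added to every array, gave 314 to 354 in wild type, 363 to 424 in CD151KO and 361 to 444 in CD9KO, so each wild type array was below each knockout array. Its part in any difference from wild type was not tested.

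Of the 9 genes, 6 had a mean level above the limit used for testing, which was the 40th percentile of all probe sets (log2 6.12 on the log2(signal + 16) scale, a signal of 53.4). Differences are on that scale, which understates those of low signals. Each was tested with limma, two-sided, over 14 arrays in 1 fit with adjustment over 12985 genes, and passed at an adjusted p under 0.05. Counts at an unadjusted p under 0.05 are given without the share of all genes at that limit, so nothing is read from them. In CD151KO against wild type, 0 of the 5 genes tested passed (limma, 0 at an unadjusted p under 0.05, lowest adjusted p 0.648), where 0.778% of all genes did, 0.454% higher and 0.323% lower. In CD9KO against wild type 1 of 6 passed, a fall, where 5.46% of all genes passed, 2.60% lower and 2.86% higher. The 6 include Rbp7, whose test there is not independent of its choice, so nothing is read from it. In CD151KO against CD9KO 1 of 5 passed, higher in CD151KO, where 10.1% of all genes passed, 6.01% higher and 4.14% lower. With 5 or 6 genes tested, these shares do not set the group apart from other genes.

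**Figure D1:**
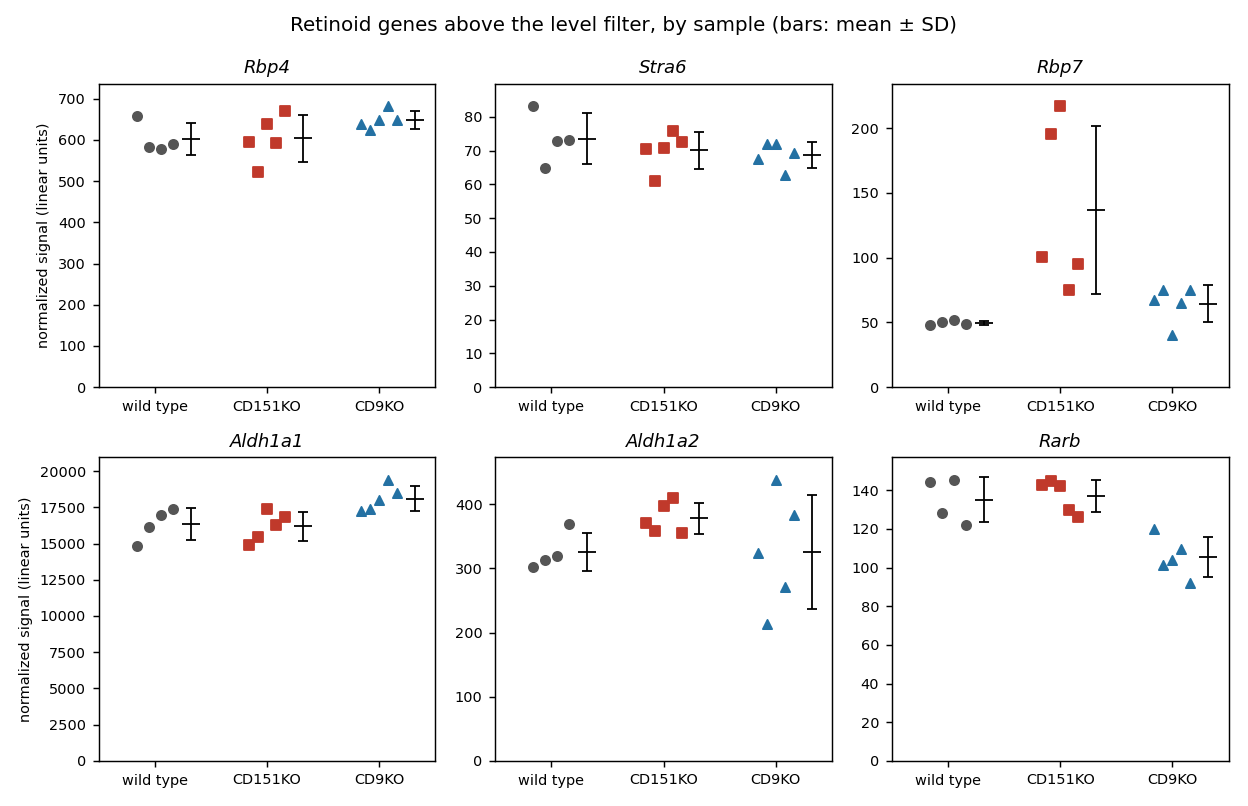
Normalized signal (linear units, from 0) of the 6 genes above the level limit, 1 point per array for wild type (grey circles), CD151KO (red squares) and CD9KO (blue triangles), with the mean and SD beside each group. Rarb is lower on all 5 CD9KO arrays, and Rbp7 ranges from 74.6 to 217 in CD151KO against 47.6 to 51.7 in wild type.

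Rarb codes for a nuclear receptor of retinoic acid and is itself a well known target of retinoic acid. Its signal was 144, 128, 145 and 122 in wild type, 143, 145, 142, 130 and 126 in CD151KO, and 120, 101, 104, 110 and 92.0 in CD9KO. Every CD9KO array was below every array of the other groups, with the closest values 120.1 in CD9KO and 122.0 in wild type. The CD9KO mean was 105 ± 10.4 (SD, n = 5), against 135 ± 11.7 in wild type (n = 4) and 137 ± 8.44 for CD151KO (n = 5). Rarb fell 1.24-fold in CD9KO against wild type (log2 -0.32, SE 0.07, limma adjusted p = 0.023), lower in 5 of 5 samples. It was 1.26-fold higher in CD151KO than in CD9KO (log2 0.34, SE 0.07, limma adjusted p = 0.0070). These comparisons share the CD9KO arrays. CD151KO and wild type, the upper neighbours in the order of levels, had a difference of 0.02 (log2, SE 0.07, limma adjusted p = 0.942). Groups that do not overlap were found for 11.8% of all genes in CD9KO against wild type and for 10.6% in CD151KO against CD9KO.

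The fall of Rarb against wild type was close to the limit. It did not pass without wild type number 1 (adjusted p = 0.063), wild type number 3 (0.052), wild type number 4 (0.0505), CD9KO number 5 (0.059) or both number 1 arrays (0.058), by limma in each case, with log2 differences between -0.34 and -0.27. Between the knockouts it passed in 25 of 25 alternative settings. Of 2 more that were chosen after seeing the data, it passed in 1 and missed the limit in the other, without CD151KO numbers 2 and 3 (log2 0.30, limma adjusted p = 0.056). Summed markers of 3 cell types are given beside Rarb. Such sums lean on the genes of highest signal. The summed signal of 8 neutrophil markers was 1955 to 2973 in CD9KO, 3732 to 11090 in CD151KO and 2557 to 5799 in wild type, and 4 of the 6 tested (S100a8, S100a9, Csf3r and Cxcr2) were higher in CD151KO than in CD9KO, where 6.01% of all genes were. These sums did not overlap between the knockouts, but CD9KO overlapped wild type. That of 7 markers of ciliated cells was 8106 to 9707 in CD9KO, 9011 to 10764 in CD151KO and 9571 to 10751 in wild type, overlapping between the knockouts, with 0 of 7 passing in any comparison (limma, 5 at an unadjusted p under 0.05 between the knockouts). With group means taken out, Rarb was also set beside the mean log2 level of marker lists over 14 arrays. It had r = 0.67 with capillary endothelial markers, 0.57 with those of alveolar fibroblasts and 0.56 with neutrophil markers. It had 0.51 with club and secretory markers, 0.47 with alveolar type 1 markers and 0.28 with ciliated ones. Without CD9KO numbers 1 and 5 these were 0.58, 0.44, 0.59, -0.15, 0.33 and -0.04. With the other cell type lists r ran from -0.38 (alveolar type 2) to 0.36 (adipocyte). The part of these cell types in the level of Rarb, and that of the first principal component, was not tested.

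The 250 bases before the start of Rarb are shown because, of those searched, they are the only ones of the group with a nuclear receptor half-site in the forms used. The search used the letters AGGTCA and the variants GGTTCA or AGTTCA on both strands, and 7 of the 9 genes had 12 such stretches from RefSeq (build GRCm38.p6). The variant GGGTCA was not searched. On 1 strand or the other it also stands in stretches of Rbp4, Aldh1a1 and Rarb, so Rarb stands alone only for the forms used. Aldh1a3 and Crabp2 had none to search. The half-sites are in capitals and stand 5 bases apart, at -53 to -48 and -42 to -37 from the start, at chr14:16575477-16575726 on the minus strand. The stretch before Rbp7, at chr4:149454969-149455218 on the minus strand, is shown beside it as the member with the widest spread and without such letters.
Rarb: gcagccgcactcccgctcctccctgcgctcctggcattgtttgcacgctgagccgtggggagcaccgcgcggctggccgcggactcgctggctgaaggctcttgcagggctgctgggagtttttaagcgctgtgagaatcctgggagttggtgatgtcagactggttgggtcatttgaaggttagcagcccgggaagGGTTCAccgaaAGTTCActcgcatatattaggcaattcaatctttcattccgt
Rbp7: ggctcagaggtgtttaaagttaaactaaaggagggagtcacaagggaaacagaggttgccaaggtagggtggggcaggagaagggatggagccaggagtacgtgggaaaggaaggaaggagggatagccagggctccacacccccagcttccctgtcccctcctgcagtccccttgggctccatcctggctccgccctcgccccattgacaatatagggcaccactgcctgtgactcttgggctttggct
Any of the half-sites occurred in 30.7% of 32851 stretches of 250 bases, AGGTCA in 4607 of them, GGTTCA in 8.85% and AGTTCA in 11.8%. A pair in direct repeat with 5 bases between them, the spacing in Rarb, occurred in 0.0548%. Matches are of letters alone, overlapping ones were counted, and no binding was measured in these samples. Which transcript of Rarb its probe set reads is not stated in the files, so the signal above cannot be assigned to this start.

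**Figure D2:**
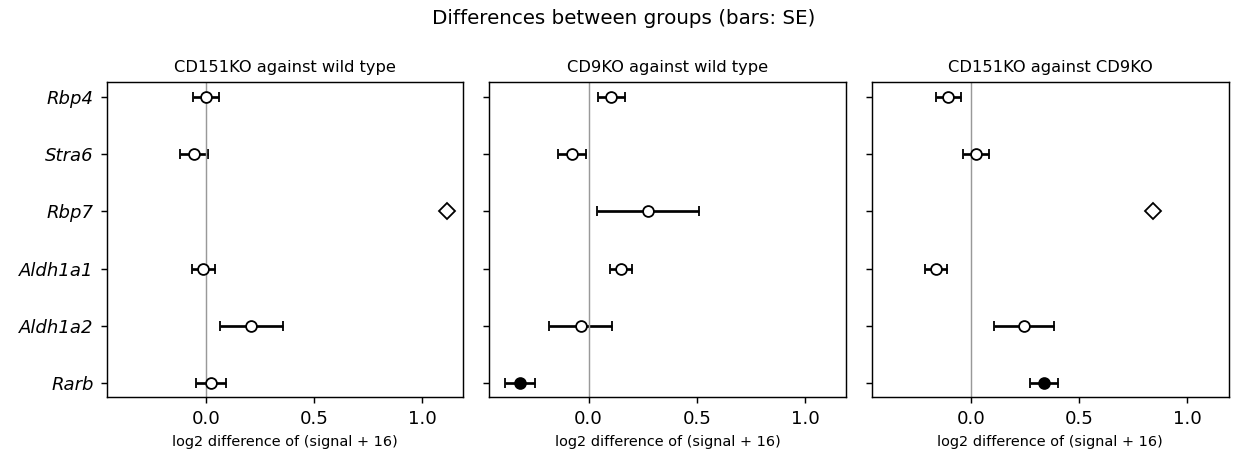
Log2 differences of (signal + 16) for the 6 genes in the 3 comparisons, with bars of 1 SE. Filled circles passed the test, open circles did not, and diamonds mark Rbp7, which was not tested in comparisons with CD151KO. The open circle of Rbp7 in CD9KO against wild type is of a test not independent of its choice, and nothing is read from it. Only Rarb is filled, at -0.32 in CD9KO against wild type and at 0.34 in CD151KO against CD9KO.

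Rbp7 codes for a cellular retinol-binding protein known from adipose tissue and capillary endothelium. Its signals were 47.6, 50.1, 51.7 and 48.9 in wild type, 100.4, 196, 217, 74.6 and 94.9 in CD151KO, and 67.2, 75.0, 40.5, 64.9 and 75.2 in CD9KO. All 5 CD151KO arrays were above all wild type arrays, numbers 2 and 3 by far the most, while CD151KO number 4 lay within the range of CD9KO. The CD151KO mean was 137 ± 64.9 (SD, n = 5), against 64.6 ± 14.2 in CD9KO (n = 5) and 49.6 ± 1.76 among wild type arrays (n = 4), and the SD was 47.5% of the mean in CD151KO, 22.1% in CD9KO and 3.54% in wild type. The log2 difference was 1.11 between CD151KO and wild type (2.17-fold) and 0.84 between CD151KO and CD9KO (1.79-fold). These values chose the gene and carry no test; groups without overlap in CD151KO against wild type were found for 4.54% of all genes. The wild type signal was below the limit of 53.4, so the gene was measured above it only through the knockouts. Without CD151KO numbers 2 and 3, the arrays with the highest Rbp7, the differences were 0.68 and 0.41, a choice made after seeing the data.

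CD9KO against wild type was tested, but the test is not independent of that choice, since it shares the wild type arrays and, in the fit of all groups, the spread of CD151KO. Nothing is read from it. Rbp7 had a difference of 0.28 (log2, SE 0.24, limma adjusted p = 0.476), with 4 of 5 CD9KO samples above all wild type samples and number 3 below them. CD151KO adds the most to the spread behind this SE. Fitted on these 2 groups alone the SE was 0.12 and the adjusted p 0.192 (limma).

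Adipocyte markers were set beside Rbp7 since fat can be carried along with a lung. The summed signal of 11 of 14 such genes was 3497 to 4256 in wild type, 4251 to 6277 in CD151KO and 3956 to 6968 in CD9KO. Car3 alone made up most of these sums. Its means were 2344, 3356 and 3741 in wild type, CD151KO and CD9KO, beside mean sums of 3898, 5276 and 5682. Of 9 tested, 1 rose in CD151KO against wild type (Lipe) and 3 rose in CD9KO against wild type (Lipe, Plin4 and Car3), where 0.454% and 2.86% of all genes rose. The calls of Plin4 (log2 0.43, limma adjusted p = 0.034) and Car3 (log2 0.64, limma adjusted p = 0.043) ended in 5 and 11 of 26 alternatives, at adjusted p up to 0.091 and 0.115. Plin4 lost its call when wild type number 1 or 3 or CD9KO number 1, 3 or 4 was left out. Car3 lost its call when any single wild type array, CD151KO number 3, or CD9KO number 1, 2, 3 or 4 was left out. Adipoq, the adiponectin gene, had 293 in wild type, 458 in CD151KO (log2 0.60, limma adjusted p = 0.227) and 448 in CD9KO (log2 0.55, limma adjusted p = 0.098), and Cidec, a lipid droplet gene, had 173, 205 and 204. Plin1 and Cfd had no probe set with 1 symbol. CD151KO numbers 2 and 3, highest for Rbp7, were also highest of their group for the summed markers at 6277 and 5753, but CD9KO numbers 1 and 3, higher still at 6968 and 6562, had Rbp7 at 67.2 and 40.5. With group means taken out, the mean log2 level of the 9 markers and Rbp7 had r = 0.12 and rho = 0.08 over 14 arrays, and r = -0.05 without CD151KO numbers 3 and 4. Capillary endothelial markers, 13 genes, summed to 38644 to 43250 in wild type, 38687 to 43521 in CD151KO and 38886 to 41859 in CD9KO, with r = 0.37 and rho = 0.23 (r = 0.11 without the same arrays). The part of either cell type in the level of Rbp7 was not tested.

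**Figure D3:**
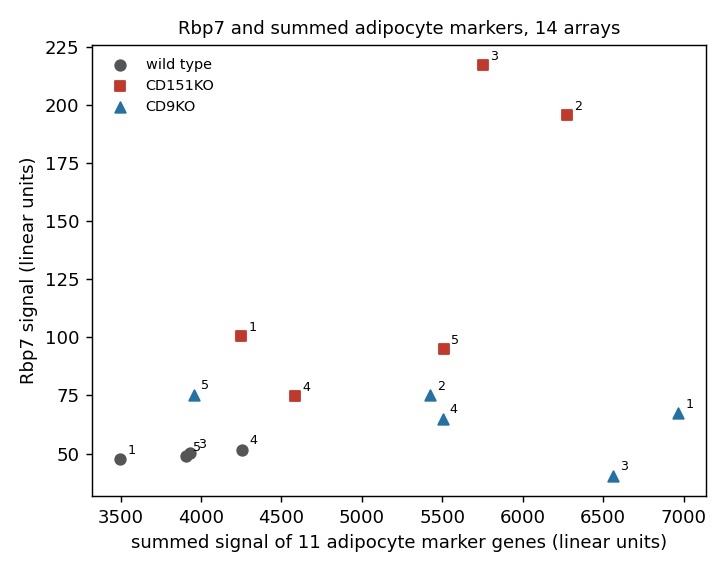
Rbp7 signal against the summed signal of 11 adipocyte marker genes (both in linear units) on the 14 arrays, with replicate numbers beside the points. Car3 makes up most of each sum. CD151KO numbers 2 and 3 are the highest for Rbp7, at 196 and 217, and CD9KO numbers 1 and 3 have the highest marker sums, at 6968 and 6562, with Rbp7 at 67.2 and 40.5.

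The genes most like Rbp7 after removal of group means were Tmem63a (r = 0.84), Cuedc2 (0.78), Rwdd2b (0.77), Mapk9 (0.77), Gpx1 (0.77), Slc32a1 (0.77), Fbxl6 (0.76), Slc24a4 (0.76), Mfsd13a (0.75) and Rbm38 (0.74), over 14 arrays. They are the 10 highest of 12984 genes and carry no test. None of them is in the adipocyte or endothelial list. Those lists hold only 9 and 13 tested genes, so nothing is read from this.

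Rbp4 codes for the retinol carrier of blood plasma, made mainly by liver and fat. Its signal was 659, 583, 578 and 589 in wild type, 594, 522, 638, 593 and 671 in CD151KO, and 639, 624, 649, 682 and 648 in CD9KO. All 3 groups overlapped, and wild type number 1 lay apart from the other wild type arrays. The means were 602 ± 38.0 (SD, n = 4), 604 ± 56.1 (n = 5) and 648 ± 21.2 (n = 5), and neither CD9KO against wild type (log2 0.11, SE 0.06, limma adjusted p = 0.294) nor the other comparisons passed. Stra6, the membrane receptor that takes up retinol, had 83.2, 64.9, 72.8 and 73.3 in wild type, 70.4, 61.1, 70.8, 75.8 and 72.6 in CD151KO, and 67.7, 72.1, 71.8, 62.8 and 69.2 in CD9KO. The groups overlapped, with differences from -0.08 to 0.02 (log2, SE 0.06) and a lowest limma adjusted p of 0.459.

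Aldh1a1 makes retinoic acid from retinaldehyde and oxidises other aldehydes as well. Its signal was 14837, 16152, 16965 and 17356 in wild type, 14895, 15465, 17419, 16299 and 16832 in CD151KO, and 17239, 17351, 18032, 19396 and 18464 in CD9KO. CD9KO stood highest, at a mean of 18096 ± 883 (SD, n = 5), against 16328 ± 1113 in wild type (n = 4) and 16182 ± 1017 for CD151KO (n = 5), with overlap between the groups. The difference from wild type was 0.15 (log2, SE 0.05, limma adjusted p = 0.094). CD151KO against CD9KO had -0.16 (log2, SE 0.05, limma adjusted p = 0.051), just short of the limit. That difference passed in 8 of 26 alternatives, among them without wild type number 1 (limma adjusted p = 0.025), wild type number 5 (0.049), CD151KO number 3 (0.039) and CD151KO number 5 (0.049). The other 4 were the filter at the 60th percentile (limma adjusted p = 0.044), a fit of these 2 groups only (0.041), array weights (0.032) and the replicate block (0.0055). CD151KO and wild type had a difference of -0.01 (log2, SE 0.05, limma adjusted p = 0.955). The lowest signals of all 14 were on wild type number 1 and CD151KO number 1, the arrays at the low end of that principal component, and without both the difference of CD9KO from wild type was 0.10 and that of CD151KO from CD9KO -0.13. With group means taken out, Aldh1a1 had r = -0.80 and rho = -0.75 with the mean log2 level of neutrophil markers. Without both number 1 arrays r was -0.64. Other lists ran from r = -0.63 (capillary endothelial markers) to 0.59 (genes known to respond to retinoic acid). The part of any cell type in the level of Aldh1a1 was not tested.

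Aldh1a2, the retinoic acid enzyme known from mesothelial cells, did not pass in any comparison and varied most in CD9KO. Its signal was 303, 313, 319 and 369 in wild type, 371, 358, 398, 409 and 355 in CD151KO, and 324, 213, 438, 271 and 383 in CD9KO. CD9KO held both the lowest and the highest array of the 14, while CD151KO was the most even. The means were 326 ± 29.4 (SD, n = 4), 378 ± 24.3 (n = 5) and 326 ± 88.7 (n = 5). The differences were 0.21 for CD151KO against wild type (log2, SE 0.15, limma adjusted p = 0.648), -0.04 for CD9KO against wild type (SE 0.15, limma adjusted p = 0.898) and 0.24 for CD151KO against CD9KO (SE 0.14, limma adjusted p = 0.263). Without CD9KO numbers 2 and 4, which had the lowest Aldh1a2 and were left out after seeing the data, the last pair became 0.21 and -0.0049.

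Aldh1a2 varied from array to array with markers of the mesothelium, the cell layer that covers the lung. Upk3b, a uroplakin gene of that layer, had 762, 794, 929 and 954 in wild type, 955, 970, 1147, 1104 and 973 in CD151KO, and 766, 373, 1185, 637 and 1094 in CD9KO. It was low and high on the same CD9KO arrays as Aldh1a2. Of 12984 genes, Upk3b was the most like Aldh1a2 (r = 0.97 over 14 arrays, group means taken out), Lrrn4 was the next (r = 0.95) and Flrt2 the third (r = 0.93). Of the 10 mesothelial markers, 8 were among the 100 genes most like it and Krt19, a keratin of epithelia too, was not (r = -0.16). The mean log2 level of the 10 had r = 0.96 and rho = 0.94 with Aldh1a2, and r = 0.86 without CD9KO numbers 2 and 3, the arrays farthest from the median of Aldh1a2. This was the highest of 78 such pairs of a member and a list, and is a description of arrays that share their processing. Ciliated markers had r = -0.71 with Aldh1a2, and -0.70 without the same arrays. Their part in the level of Aldh1a2 was not tested. The summed signal of the 10 mesothelial markers was 6532 to 6692 in wild type, 6810 to 7376 in CD151KO and 5083 to 7030 in CD9KO, and 0 of the 10 passed in any comparison (limma, 1, 0 and 2 at an unadjusted p under 0.05). Krt19 and Gpm6a made up most of that sum, with means of 2408 and 1831 in wild type beside a mean sum of 6599.

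**Figure D4:**
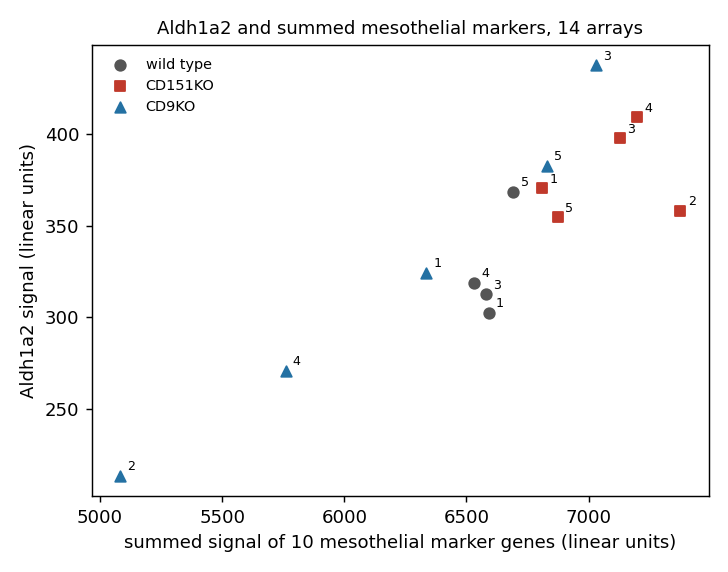
Aldh1a2 signal against the summed signal of 10 mesothelial marker genes (both in linear units; neither axis starts at 0) on the 14 arrays, with replicate numbers beside the points. Krt19 and Gpm6a make up most of each sum. CD9KO number 2 is lowest on both axes, at 213 and 5083, and CD9KO number 3 is the highest for Aldh1a2, at 438 with a sum of 7030.

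The remaining 3 genes lay below the level limit and were not tested. Aldh1a3, the last of the retinoic acid enzymes, had group means from 27.6 to 36.2 over its 3 probe sets. Crabp1 and Crabp2, carriers of retinoic acid within the cell, had group means from 12.6 to 13.8 and from 23.9 to 25.9. For 1 probe set of Aldh1a3 the CD9KO mean was 34.5 ± 5.82 (SD, n = 5) against 27.6 ± 2.53 in wild type (n = 4), while its other probe sets had 35.2 and 32.3 in CD9KO against 36.2 and 32.1, so the probe sets disagreed.

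Pairs of members had correlations of either sign. With group means taken out, correlations between the 6 genes above the limit ran from r = -0.44 for Rbp7 with Stra6 to r = 0.54 for Rbp4 with Stra6 over 14 arrays. Beside the mean log2 level of 26 other retinoid pathway genes, Rarb had r = 0.65 and rho = 0.74 (r = 0.70 without CD9KO numbers 1 and 5). The others had r = 0.49 (Rbp7), 0.18 (Rbp4), 0.07 (Stra6), -0.34 (Aldh1a1) and -0.41 (Aldh1a2). The genes most like Rarb were Etfrf1 (r = 0.89), Lgr6 (0.87) and Tm7sf3 (0.85), those most like Aldh1a1 were Septin8 (0.94), Zbtb8a (0.92) and Sptssb (0.92), those most like Rbp4 were Zmynd8 (0.90), Zc3h4 (0.88) and Igf2bp3 (0.87), and those most like Stra6 were Zfp157 (0.91), Cort (0.84) and Ttll6 (0.84).

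Of 42 other genes of the retinoid pathway, 37 had a probe set and 26 were tested. In CD151KO against wild type 1 rose and 0 fell, where 0.778% of all genes passed. In CD9KO against wild type 1 rose and 0 fell, where 5.46% passed, and in CD151KO against CD9KO 2 were higher and 0 lower, where 10.1% passed. These counts do not set the pathway apart from other genes. The list medians were 0.02, 0.0014 and 0.04 (log2), beside 0.0079, 0.0037 and 0.0016 over all genes. Lipe, the hormone-sensitive lipase, which also cleaves retinyl esters, had 126, 125, 127 and 112 in wild type, 152, 151, 187, 177 and 205 in CD151KO, and 182, 221, 172, 191 and 162 in CD9KO. It was higher on every knockout array than on any wild type array, by 0.45 for CD151KO (log2, SE 0.09, limma adjusted p = 0.030) and by 0.54 for CD9KO (SE 0.09, limma adjusted p = 0.011), comparisons that share the wild type arrays. Groups without overlap were found for 4.54% of all genes in CD151KO against wild type and for 11.8% in CD9KO against wild type. Lipe is in the adipocyte list too, whose sums are given above. The rise in CD151KO did not pass in 11 of 26 alternatives, among them without any 1 of the wild type arrays (limma adjusted p from 0.054 to 0.105) or CD151KO number 3, 4 or 5 (0.076, 0.069 and 0.069), and was 0.19 with the mean of its probe sets (limma adjusted p = 0.264).

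Fabp5, a fatty acid carrier that also binds retinoic acid, had 4989, 5614, 5599 and 5468 in wild type, 7412, 8268, 6387, 6799 and 5782 in CD151KO, and 6441, 5088, 5856, 5095 and 4636 in CD9KO. It was higher in CD151KO than in CD9KO by 0.35 (log2, SE 0.09, limma adjusted p = 0.029), with some overlap, and higher than every wild type array but short of the limit (log2 0.34, limma adjusted p = 0.152). CD151KO and wild type did not overlap for 4.54% of all genes. Adh1, an alcohol dehydrogenase that oxidises retinol, had a mean of 2354 in CD9KO, against 2824 in wild type and 2828 with CD151 removed, and was higher in CD151KO than in CD9KO by 0.26 (log2, SE 0.07, limma adjusted p = 0.032). Neither call between the knockouts held without CD151KO number 1 (limma adjusted p = 0.074 for Fabp5 and 0.072 for Adh1), CD151KO number 2 (0.068 and 0.078), CD9KO number 2 (0.055 and 0.0501), CD9KO number 4 (0.066 and 0.075) or CD9KO number 5 (0.080 and 0.084). That of Adh1 also ended without CD151KO number 5 (limma adjusted p = 0.055) or CD9KO number 3 (0.051). Dhrs3, which reduces retinaldehyde back to retinol, had means of 1325, 1520 and 1414 in wild type, CD151KO and CD9KO, with a difference of 0.19 in CD151KO against wild type (log2, limma adjusted p = 0.209). Cyp26b1, which degrades retinoic acid and is named after its values were seen, had means of 158, 219 and 127, with 0.68 between CD151KO and CD9KO (log2, limma adjusted p = 0.065).

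Of 22 genes known to respond to retinoic acid, 16 were tested. In the comparisons against wild type 0 passed for CD151KO and 0 for CD9KO (limma, 1 and 4 at an unadjusted p under 0.05). Between CD151KO and CD9KO 1 was higher and 1 lower, where 10.1% of all genes passed at the adjusted limit. There 8 had an unadjusted p under 0.05 (limma). The share of all genes at an unadjusted p under 0.05 is not given for any comparison, so nothing is read from these counts. Meis2, a homeobox gene, was higher in CD151KO by 0.34 (log2, SE 0.10, limma adjusted p = 0.041), at 354, 323, 327, 251 and 247 against 241, 215, 222, 244 and 240 in CD9KO, and 235, 325, 282 and 284 in wild type. Hoxb5, a Hox gene expressed in lung mesenchyme, was lower in CD151KO, at 206, 214, 200.5, 254 and 239, than in CD9KO, at 334, 269, 285, 278 and 320, by -0.39 (log2, SE 0.07, limma adjusted p = 0.0051). Wild type had 237, 239, 243 and 270, overlapping both knockouts. Both genes separated the knockouts without overlap, in opposite directions, where 10.6% of all genes had no overlap between the knockouts. Hoxb5 passed in 26 of 26 alternatives. Meis2 passed in 11 of 26, was 0.13 with the mean of its probe sets (limma adjusted p = 0.334), and lost its call when the array of wild type number 4 or 5, of CD151KO number 1, 2 or 3, or of any single CD9KO sample was left out (limma adjusted p from 0.051 to 0.104). Ret, a receptor kinase gene, had a difference of 0.35 in CD9KO against wild type (log2, SE 0.13, limma adjusted p = 0.106). The list medians were 0.03, 0.06 and -0.06 in the 3 comparisons.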

How the data were processed

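Signals of 14 whole-lung samples on Affymetrix arrays were used. The authors deposited normalized intensities per probe set, on a linear scale; per the submitters' processing notes Affymetrix Expression Console and MAS5 were named, without version or role, and neither the labels nor the file header give the method of normalization. Of 45101 probe sets, 34958 had 1 gene symbol in the platform annotation, 932 several and 9211 none. For each gene the probe set of highest mean signal was used, and 12985 of 18193 genes passed the level limit. A linear model of the 3 groups was fitted to log2(signal + 16) with limma 3.58.1 in R 4.3.3 (lmFit, eBayes with trend; 11 residual degrees of freedom), without further normalization, with Benjamini-Hochberg adjustment. The number of arrays limits the precision. The procedure was tested on simulated data with noise drawn independently for each gene and array. Such data hold no variation shared between genes or arrays, so the test does not speak for that in these arrays.

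The members, the gene lists and the tests were chosen with earlier results of these data known. All members are named, with up to 4 genes of a list by smallest unadjusted p against wild type, pathway genes that passed, and the genes most alike. Only some of the lists are described. Alternatives were pseudocounts of 1 and 64, quantile normalization, median centring, no filter or one at the 60th percentile, averaged probe sets, only the compared groups, array weights, no trend, a block for the replicate number, leaving out each array, and leaving out both number 1 arrays. Leaving out CD151KO numbers 2 and 3, or CD9KO numbers 2 and 4, was added after seeing the data. These arrays were picked by their levels of Rbp7 and of Aldh1a2, so no p is given for those genes there.

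Whether same-numbered samples of different groups belong together was not settled. The correlation of their deviations from the group means was over 0.1 in 7 of 13 pairs, from -0.14 to 0.59. Wild type with CD151KO had r = 0.59, -0.14, 0.45 and 0.24 for numbers 1, 3, 4 and 5, and pairs with CD9KO had -0.097 to 0.21. On the first principal component these numbers lay at -18.6, -4.99, 0.84 and 1.60 in wild type. In CD151KO they lay at -17.3, -4.79, 1.13 and 2.50, and in CD9KO at 7.24, 9.70, 13.3 and 9.85.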

Additional observations from a re-analysis of the deposited data

Results flagged for a closer look

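Rbp4 of wild type number 1 was 659, while the other 3 wild type samples lay between 578 and 589. The gap to the nearest was 0.861 of the range of the group, which is above Dixon's 95% critical value for 4 samples. It was the only such value among 36 groups of samples examined, and chance alone marks about 1 in 20. This array was also the lowest of all on the first principal component (-18.6), whose part in the level of Rbp4 was not tested.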

How the results depend on the processing

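Of the members tested, 1 passed in CD9KO against wild type and 1 in CD151KO against CD9KO, Rarb each time. Against wild type the count was 0 with the 60th percentile filter, which leaves Rarb out, and 0 without both number 1 arrays or without CD9KO numbers 2 and 4 (added after seeing the data; limma adjusted p = 0.074 for Rarb), and it ranged from 0 to 1 when single arrays were left out. Between the knockouts it was 2 with only the compared groups and 2 with array weights, through Aldh1a1, 0 without CD151KO numbers 2 and 3 (added after seeing the data), and 1 to 2 without single arrays. In CD151KO against wild type 0 passed under every alternative. Pathway genes passing in CD151KO against wild type, 1 as reported, were 0 with averaged probe sets, with only the compared groups, without both number 1 arrays and without CD151KO numbers 2 and 3, and 0 to 1 without single arrays. In CD9KO against wild type they were 2 with the 60th percentile filter and 1 to 2 without single arrays. Between the knockouts, 2 as reported, they were 1 with array weights, 1 without both number 1 arrays, 0 without CD151KO numbers 2 and 3, 0 without CD9KO numbers 2 and 4, and 0 to 3 without single arrays. The cause of these changes was not tested, except where Rarb was left out.

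With the replicate block, members passing were 0, 2 and 2 in CD151KO against wild type, CD9KO against wild type and CD151KO against CD9KO, the added member being Aldh1a1 (limma adjusted p = 0.010 against wild type and 0.0055 between the knockouts), and pathway genes 0, 2 and 4; all genes passing against wild type in CD9KO were 1594 rather than 709. Whether the numbers pair the samples was not settled, so the results with the block stand beside those reported and do not replace them. Under the block Aldh1a1 in CD151KO against wild type was 0.0027, Aldh1a2 in CD9KO against wild type 0.040 and Adh1 in CD151KO against wild type -0.016, signs opposite to those reported.

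Other signs that turned were of differences that did not pass. In CD151KO against wild type, Rbp4 was -0.0015 with quantile normalization and -0.038 to 0.050 without single arrays, Stra6 0.0020 with array weights, Aldh1a1 -0.058 to 0.018 without single arrays, Rarb -0.021 to 0.054 without single arrays and -0.019 without CD151KO numbers 2 and 3, Adh1 -0.049 to 0.056 without single arrays and -0.012 without CD151KO numbers 2 and 3, and Meis2 -0.044 with array weights and -0.055 without both number 1 arrays. In CD9KO against wild type, Aldh1a2 was -0.15 to 0.10 without single arrays and 0.21 without CD9KO numbers 2 and 4, and Fabp5 -0.071 to 0.047 and 0.047. Between the knockouts Stra6 was -0.0032 to 0.062 without single arrays, and without CD9KO numbers 2 and 4 Aldh1a2 was -0.0049 and Lipe 0.013. Rbp7 in CD151KO against wild type kept its sign, from 0.68 without CD151KO numbers 2 and 3 to 1.32 with a pseudocount of 1. Low signals, near the level limit for Rbp7 and Stra6, limit what differences can show.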
